A study of Rattus norvegicus with 65 samples.

Results

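The nuclear genes of respiratory complexes II, III, IV and V were followed through all 10 groups of a drug study in primary neonatal rat cardiomyocytes. The genes were chosen by symbol alone: those beginning with Sdha, Sdhb, Sdhc, Sdhd or Sdhaf for complex II, with Uqcr, Uqcc or Cyc1 for complex III, with Cox and a digit for complex IV, and with Atp5 for complex V. This gave 60 genes of the 14554 in the table, with 7 in complex II, 14 in complex III, 23 in complex IV and 16 in complex V. They are 41 subunits, 16 assembly factors, 1 inhibitor (Atp5if1) and 2 rows that the annotation lists as a like gene or a pseudogene (Cox7a2l2 and Atp5mk-ps2). Cytochrome c (Cycs) and the subunit genes Cox7a1, Cox7a2, Atp5f1c and Atp5mk were not analysed here, and neither were the subunits made from mitochondrial DNA.

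Complex II oxidises succinate and passes the electrons to ubiquinone, and it is also an enzyme of the citric acid cycle. Complex III passes electrons from ubiquinol to cytochrome c, complex IV passes them from cytochrome c to oxygen, and complex V uses the proton gradient to make ATP. Each complex needs assembly factors, proteins that insert heme, copper, flavin or iron-sulfur groups or hold subunits together without being part of the finished enzyme. Heart muscle is rich in these complexes, and several subunits of complex IV have separate genes for a heart and muscle form and a ubiquitous form.

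Heart cells of newborn rats were plated, deprived of serum overnight and then exposed for 6 or 24 hours to 10 mM 5-fluorouracil (5FU), 2.5 mM acetaminophen (Ace) or 1.25 μM doxorubicin (Dox). The controls received solvent only: DMSO1 held 1% DMSO and belongs to 5FU, and DMSO2 held 0.25% DMSO and is shared by Ace and Dox. Each group had 6 or 7 libraries, 65 in all. Hearts of several litters gave 1 mixed preparation of cells, which was then plated. Libraries of a group are thus parallel wells, and the p-values measure the spread between wells, not between animals.

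Library totals ran from 14332827 to 25738297 estimated counts. All 60 genes had at least 10 counts in every library, and their lowest value was 23 counts. Levels are given as CPM, a gene's count scaled to a fixed library total, on library sizes scaled by the trimmed mean of M values (TMM), as lowest, median and highest value of a group, and they are not compared between genes because transcript lengths were not used here. Of 58 genes checked, 28 have a named pseudogene or like gene in the rat annotation GRCr8, with which reads could have been shared. The summed level of 15 cardiomyocyte markers ran from 49200 to 79400 CPM in the 4 control groups. It was 18500 to 25900 CPM in Dox at 24 hours against 49400 to 63100 CPM in DMSO2, and 35800 to 38300 CPM in 5FU at 24 hours against 49200 to 54800 CPM in DMSO1. Library 7 stood apart in both Dox groups. At 24 hours it had the lowest summed cardiomyocyte (18500 CPM, the others from 21100), fibroblast (1950, from 3220), endothelial (25.6, from 42.3) and smooth muscle markers (409, from 1330). At 6 hours its cardiomyocyte sum was 49500 CPM, the others running from 62700, and its smooth muscle sum 1240 CPM, the others running from 2540. Without library 7, 17 of the 60 genes were higher and 28 lower with Dox at 24 hours, as with it, and 48 were higher and 4 lower at 6 hours, against 50 and 4 with it. None of the markers measured for cardiomyocytes, fibroblasts, endothelial cells, smooth muscle or macrophages was at 0 in any library. In a bulk culture, fewer cells of a type and less RNA per cell cannot be told apart.

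Promoter sequence is shown for 6 genes that the results turn on: Sdha and Cox10, which fell with Dox at 24 hours, Uqcrh and Uqcrq, which rose, and Cox6a2 and Cox8b, the heart and muscle forms of complex IV subunits. Each run holds 175 bases before and 25 bases after the RefSeq gene start on the rat assembly GRCr8, read 5′ to 3′ along the gene. Capitals mark matches on either strand to any of 4 motifs: GCGC, any base and TGCGC for nuclear respiratory factor 1 (NRF1), CCGGAAG for factors of the ETS family, AAGATGGCG for YY1 and CTA, any 4 bases and TAG for MEF2.
Sdha, chr1:30764378-30764577, plus strand: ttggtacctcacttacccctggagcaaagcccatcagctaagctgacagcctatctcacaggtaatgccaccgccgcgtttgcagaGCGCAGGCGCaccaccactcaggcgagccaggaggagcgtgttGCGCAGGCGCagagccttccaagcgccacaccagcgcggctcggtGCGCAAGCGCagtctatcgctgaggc
Cox10, chr10:49241985-49242184, minus strand: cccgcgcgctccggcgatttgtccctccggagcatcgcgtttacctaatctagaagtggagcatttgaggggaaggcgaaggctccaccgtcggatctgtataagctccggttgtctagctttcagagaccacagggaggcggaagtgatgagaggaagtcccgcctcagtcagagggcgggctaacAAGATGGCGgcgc
Uqcrh, chr5:134790858-134791057, minus strand: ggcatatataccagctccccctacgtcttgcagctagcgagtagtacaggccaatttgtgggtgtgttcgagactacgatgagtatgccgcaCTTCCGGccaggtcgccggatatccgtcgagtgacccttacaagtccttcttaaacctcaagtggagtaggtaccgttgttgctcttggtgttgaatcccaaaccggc
Uqcrq, chr10:38089954-38090153, minus strand: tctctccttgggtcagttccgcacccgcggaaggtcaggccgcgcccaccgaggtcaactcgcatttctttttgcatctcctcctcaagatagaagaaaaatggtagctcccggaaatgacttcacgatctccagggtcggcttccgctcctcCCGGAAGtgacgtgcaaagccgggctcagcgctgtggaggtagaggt
Cox6a2, chr1:192219692-192219891, minus strand: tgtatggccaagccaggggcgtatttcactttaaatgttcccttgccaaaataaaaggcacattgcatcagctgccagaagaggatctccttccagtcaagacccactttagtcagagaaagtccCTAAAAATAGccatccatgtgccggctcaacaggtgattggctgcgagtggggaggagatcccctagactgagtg
Cox8b, chr1:205408249-205408448, minus strand: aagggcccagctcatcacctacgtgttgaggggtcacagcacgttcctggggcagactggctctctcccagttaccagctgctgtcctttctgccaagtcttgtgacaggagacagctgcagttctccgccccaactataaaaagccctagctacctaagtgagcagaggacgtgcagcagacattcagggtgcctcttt

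A promoter window of 300 bases was found for 52 of the 60 genes, and 30 of the 52 held at least 1 of the 4 motifs. The NRF1 letters stood in 11 of the 52 windows, or 21.2%, against 4.25% of all 33469 windows of the same length and 8.49% of the 12818 windows of genes in the table. The ETS letters stood in 36.5% of the 52 windows, in 8.75% of all windows and in 15.3% of those of genes in the table. For YY1 these shares were 7.69%, 1.73% and 3.07%, and for MEF2 they were 5.77%, 3.84% and 2.96%. Sdha had 3 NRF1 matches, at -89, -46 and -1 bases from its start, and Cox10 had 1 YY1 match, at 12 bases. Uqcrh and Uqcrq each had 1 ETS match, at -83 and -22 bases. Cox6a2 had 1 MEF2 match, at -50 bases, and Cox8b had none of the 4 motifs in this window. The NRF1 letters were in 7 of 26 windows of genes that fell with Dox at 24 hours and in 2 of 14 windows of genes that rose, and the ETS letters in 8 and 6. These matches describe letters only, since no binding was measured.

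At 6 hours 49 of the 60 genes were higher with 5FU, against 23.4% of all genes, and 50 were higher with Dox (28 when library size alone set the scale), against 31.5% of all genes. With Ace at 6 hours 1 gene changed. At 24 hours 29 genes were higher with 5FU, where 28% of all genes were. With Dox at 24 hours 17 were higher (28.3%) and 28 lower (46.7%), against 40.4% and 41% of all genes. The share lower was thus near that of all genes, and the share higher was below it. Of the 60, 5 of the 7 complex II genes and 11 of the 16 assembly factors were lower there. So were the catalytic and core subunits of complex III and the c ring of complex V. Of the 5 small subunits of complex III, 4 were higher. For complex IV subunits the share higher (42.9%) was near the 40.4% of all genes, and for complex V (31.2%) it was below. Genes were called at a false discovery rate (FDR, the adjusted p) below 0.01 in an edgeR quasi-likelihood fit of all libraries, and changes are log2 fold changes with standard errors (SE).

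**Figure D1:**
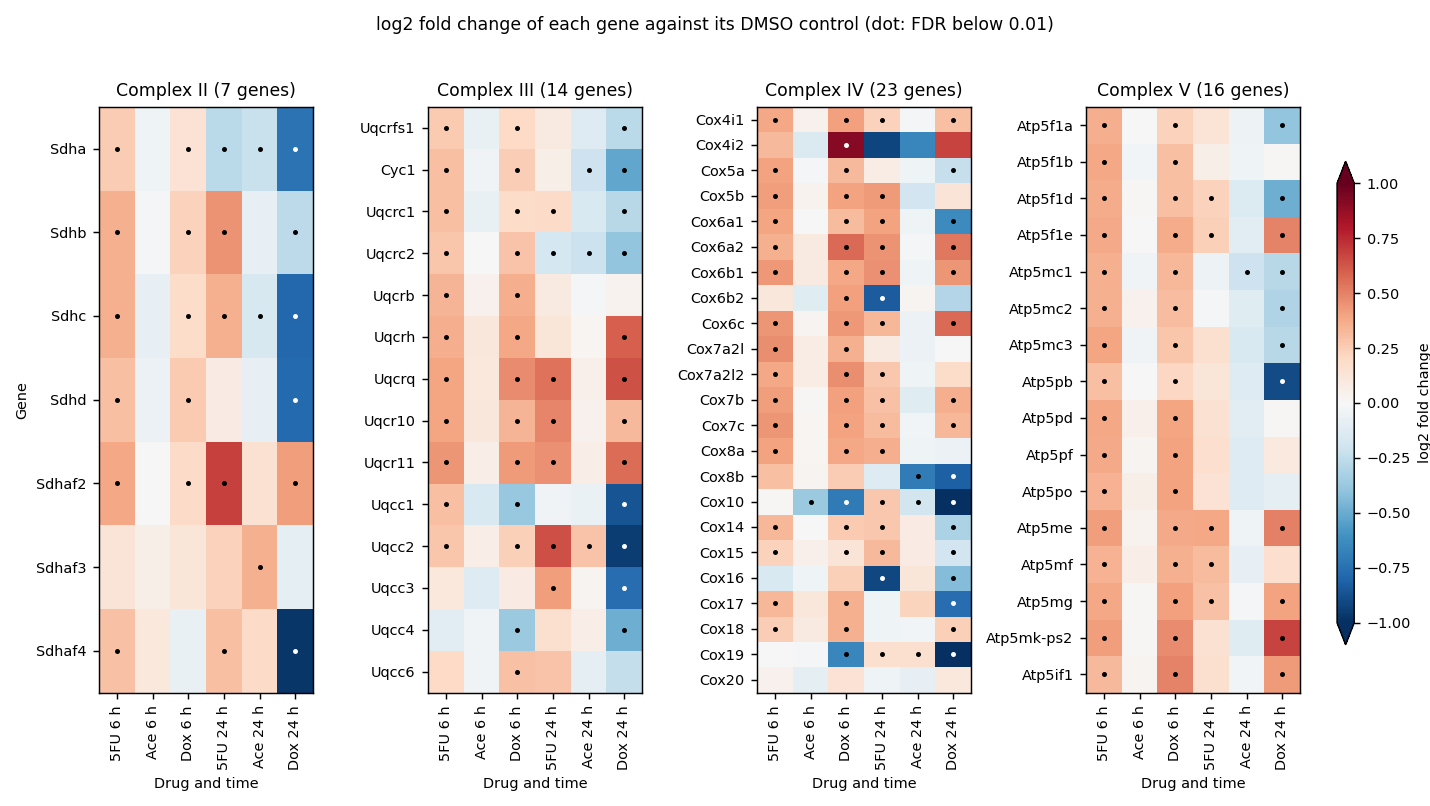
Log2 fold change (colour, from -1 to 1, with stronger values at the end colours) of each of the 60 genes in the 6 comparisons of a drug with its own DMSO control, with a dot where the FDR was below 0.01. The columns of 5FU and Dox at 6 hours hold 49 and 50 higher genes (28 for Dox with library size alone as scaling), Ace at 6 hours holds 1 dot, and Dox at 24 hours holds 17 higher and 28 lower genes.

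With 5FU at 6 hours, 49 of the 60 genes rose and 0 fell, where 23.4% of all genes rose and 24.5% fell. By edgeR 0 genes were lower also at an unadjusted p under 0.05, and DESeq2 called 0 lower. The median log2 fold change of the 60 was 0.36, against -0.002 for all genes. In 33 genes every 5FU library lay above every DMSO1 library, which held for 13.8% of all genes. All 16 genes of complex V rose, with log2 fold changes between 0.30 and 0.42, and so did 11 of 14 in complex III, 16 of 23 in complex IV and 6 of 7 in complex II.

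Atp5f1b, the catalytic beta subunit of ATP synthase, had 4440, 4610 and 5150 CPM in DMSO1 and 5680, 6110 and 6530 CPM in 5FU at 6 hours (log2 change 0.39, SE 0.05, adjusted p = 2.11e-10). Cox7a2l, a relative of the subunit 7A genes known for joining complexes III and IV in supercomplexes, had 162, 179 and 194 CPM and 219, 235 and 300 CPM, the highest change of the 60 (log2 change 0.47, SE 0.06, adjusted p = 2.79e-09). Neither gene overlapped between the groups. Uqcr11, a small subunit of complex III, had 282, 324 and 326 CPM and 363, 431 and 506 CPM (log2 change 0.44, SE 0.07, adjusted p = 5.88e-08). Cox6c, a subunit of complex IV, had 301, 347 and 363 CPM and 412, 455 and 541 CPM (log2 change 0.44, SE 0.08, adjusted p = 2.62e-06). Both also lay above the control range in every 5FU library. The 11 genes that did not pass were 8 assembly factors and 3 subunits, Cox4i2, Cox6b2 and Cox8b. Among these factors, Cox10, which makes heme O for complex IV, had a log2 change of 0.01, and Cox19, a factor of copper supply, had one of 0.00.

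With Dox at 6 hours, 50 genes rose and 4 fell, against 31.5% and 32.7% of all genes. The median log2 fold change was 0.32. Of the 41 subunits 40 rose, Cox8b being the exception, while of the 16 assembly factors 7 rose and 4 fell. All libraries of Dox lay above all of DMSO2 in 27 genes and below them in 2, Cox10 and Cox19, against 19.7% and 22.9% of all genes. With library size alone as scaling, the median of all genes moved to -0.15 and that of the 60 genes to 0.17, 28 genes rose and 5 fell, and Sdha turned to -0.013. With that scaling the median of the 16 assembly factors turned from 0.14 to -0.02.

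Cox10 had 64.8, 72 and 72.8 CPM in DMSO2 and 39.5, 42.9 and 54.2 CPM in Dox at 6 hours (log2 change -0.71, SE 0.05, adjusted p = 8.52e-20). Cox19 had 32, 34.7 and 36.5 CPM in DMSO2 and 20.2, 21.5 and 25.1 CPM in Dox (log2 change -0.66, SE 0.04, adjusted p = 7.23e-21). Uqcc1 and Uqcc4, both assembly factors of complex III, fell as well. Uqcc1, which acts in the synthesis of cytochrome b, had 76.8, 81.7 and 82.9 CPM and 56.1, 58.4 and 77.1 CPM (log2 change -0.38, SE 0.06, adjusted p = 1.64e-07), and 1 Dox library lay within the control range. Uqcc4 had a log2 change of -0.37 (SE 0.07).

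Among the genes that rose with Dox at 6 hours, Cox6a2, the heart and muscle form of complex IV subunit 6A, went from 493, 578 and 641 CPM to 791, 856 and 922 CPM (log2 change 0.57, SE 0.07, adjusted p = 2.64e-11). Atp5if1, which inhibits ATP hydrolysis by complex V, went from 175, 195 and 219 CPM to 257, 282 and 296 CPM (log2 change 0.49, SE 0.05, adjusted p = 2.11e-12). Neither gene overlapped between the groups. Cox4i2, the low-oxygen form of subunit 4, had the highest change at low levels, 3.37, 4.38 and 5.43 CPM in DMSO2 and 4.94, 6.46 and 21.6 CPM in Dox (log2 change 0.91, SE 0.29, adjusted p = 0.00409). A single Dox library, number 4 of the group, held the value of 21.6 CPM. Without it the log2 change of Cox4i2 was 0.46 and did not pass, and neither did it pass without number 7 of the DMSO2 libraries. The same Dox library also had the highest values of Cox10 and Uqcc1. The rise of Cox6b2 (log2 change 0.41, adjusted p = 0.00228) did not pass without number 3 of the Dox libraries, and neither Cox4i2 nor Cox6b2 passed with library size alone as scaling.

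Of the 49 genes that rose with 5FU at 6 hours and the 50 that rose with Dox at 6 hours, 47 were shared, which is 95.9% of the first list and 94% of the second. Lists of 49 and 50 from the same 60 genes must share most of their members. The share of all genes higher with both drugs was not counted, so this overlap is not read as particular to the 60. The controls of these drugs were different libraries. Uqcc1 was called in opposite directions, with a log2 change of 0.30 (SE 0.07) in 5FU and -0.38 (SE 0.06) in Dox. The difference between the drugs was not tested.

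With Ace at 6 hours, 0 genes rose and 1 fell, against 16.5% and 15.2% of all genes. By edgeR 0 genes were higher and 2 lower at an unadjusted p under 0.05, and DESeq2 called 0 higher and 1 lower. The gene that fell was Cox10, with 64.8, 72 and 72.8 CPM in DMSO2 and 50.8, 55.3 and 58.3 CPM in Ace (log2 change -0.37, SE 0.05, adjusted p = 2e-08). No Ace library reached the lowest DMSO2 value. The groups did not overlap either for Uqcc1 (log2 change -0.15), which did not pass, so 2 genes were lower in every Ace library, against 12.1% of all genes. The genes other than Cox10 had log2 changes between -0.15 and 0.12.

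**Figure D2:**
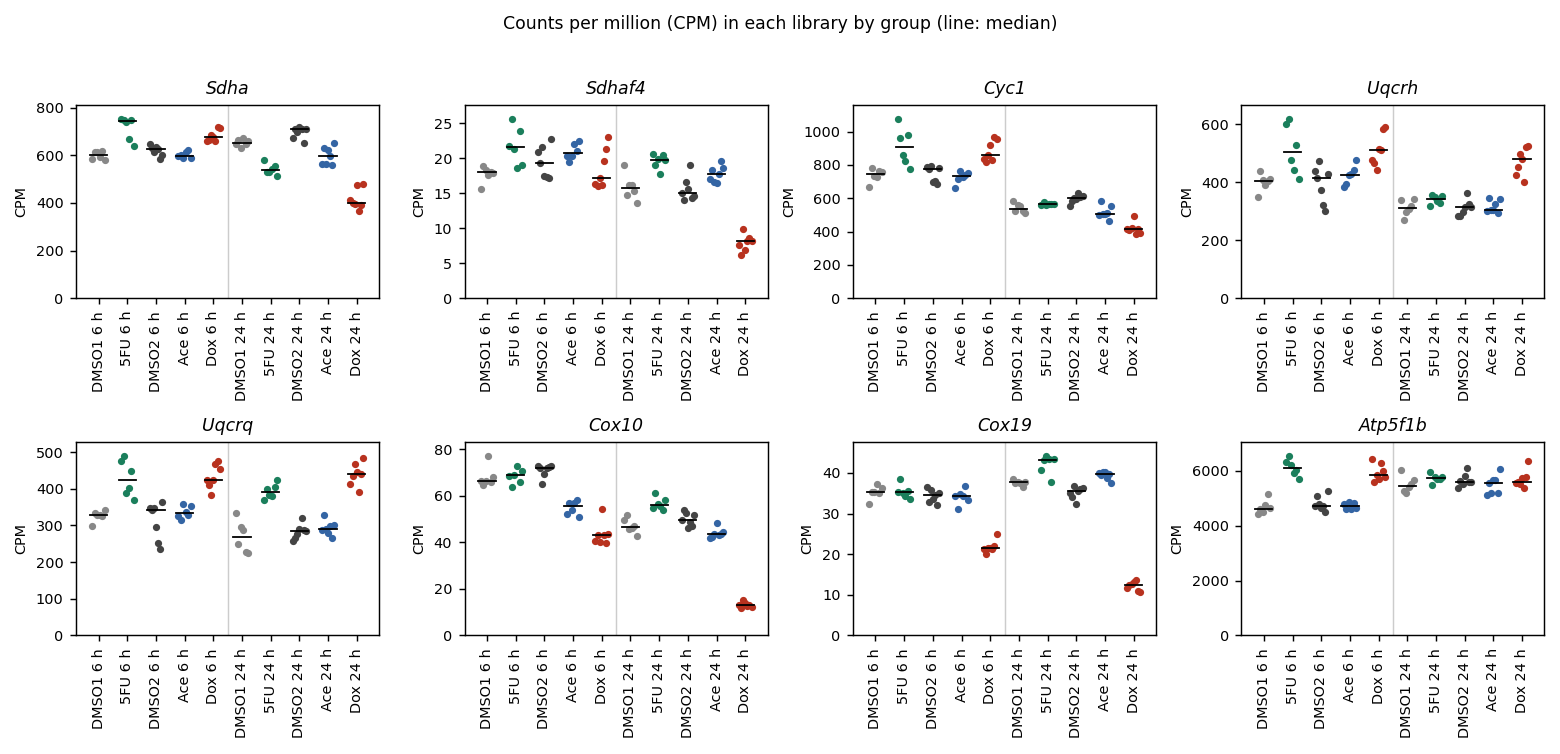
CPM (vertical axis from 0) of 8 genes in every library of the 10 groups (horizontal axis), with the median of each group as a line. Cox10 and Cox19 sit lowest in Dox at 24 hours, where Cox10 had a median of 12.9 CPM, while Uqcrh and Uqcrq sit above DMSO2 in the same libraries.

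With 5FU at 24 hours, 29 genes rose and 4 fell, against 28% and 27.8% of all genes. The median log2 fold change was 0.18, and the groups did not overlap in 19 higher and 5 lower genes, against 22.3% and 20.6% of all genes. Of the 49 genes higher at 6 hours 26 were higher, 2 lower and 21 not called at 24 hours, a count that was not made over all genes. In complex IV 14 of 23 genes rose (60.9%), in complex II 4 of 7 (57.1%) and in complex III 6 of 14 (42.9%). In complex V 5 of 16 rose (31.2%), near the 28% of all genes.

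Sdhaf2, which attaches the flavin to Sdha, showed the highest rise with 5FU at 24 hours, from 55.8, 60.9 and 72.3 CPM in DMSO1 to 95.1, 99.3 and 103 CPM (log2 change 0.68, SE 0.06, adjusted p = 3.51e-16). Sdha itself, the flavoprotein that oxidises succinate, fell from 631, 653 and 674 CPM to 511, 536 and 581 CPM (log2 change -0.27, SE 0.05, adjusted p = 8.41e-07). The iron-sulfur subunit Sdhb rose from 221, 240 and 290 CPM to 320, 337 and 341 CPM (log2 change 0.45, SE 0.06, adjusted p = 7.13e-09). None of the 3 genes overlapped between the groups, and the paired catalytic subunits of complex II moved in opposite directions.

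Uqcc2, an assembly factor for cytochrome b, rose against DMSO1 from 24.6, 32.1 and 35.2 CPM to 43.9, 47.7 and 53.6 CPM with 5FU at 24 hours (log2 change 0.64, SE 0.08, adjusted p = 3.87e-11). Its medians at 6 hours were 59.7 CPM in DMSO1 and 70.3 CPM in 5FU, so both groups were lower at 24 hours. Uqcrq, a small subunit of complex III, rose from 224, 268 and 334 CPM to 370, 392 and 425 CPM (log2 change 0.55, SE 0.08, adjusted p = 1.81e-08). Every 5FU library was above the control range for both. Cox16, a factor for the copper site of complex IV, fell from 12.2, 15.4 and 21.9 CPM to 7.61, 8.46 and 9.9 CPM (log2 change -0.91, SE 0.10, adjusted p = 1.24e-11). Cox6b2, known as the testis form of subunit 6B, fell from 3.09, 3.31 and 4.11 CPM to 1.47, 1.86 and 2.31 CPM (log2 change -0.83, SE 0.14, adjusted p = 9.15e-07). Neither overlapped its control, and neither did Uqcrc2, a core protein of complex III, which was the remaining fall (log2 change -0.18, SE 0.06). Uqcrc2 did not pass without number 2, 4, 5 or 6 of the 5FU libraries or number 1 or 4 of the DMSO1 libraries. The other 3 falls passed whichever library was left out.

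With Ace at 24 hours, 3 genes rose and 7 fell, against 18.2% and 19.1% of all genes. The median was -0.05, and with library size alone it was 0.01 with 6 rises and 4 falls, so the balance of directions depends on the scaling. The groups did not overlap in 4 higher and 2 lower genes, against 13.2% and 13.7% of all genes. The genes that fell were Sdha, Sdhc, Cyc1, Uqcrc2, Cox8b, Cox10 and Atp5mc1, and those that rose were the assembly factors Sdhaf3, Uqcc2 and Cox19.

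Cox8b, the heart and muscle form of subunit 8, fell most with Ace at 24 hours, from 164, 206 and 251 CPM to 97.2, 124 and 185 CPM (log2 change -0.70, SE 0.12, adjusted p = 1.24e-06), with 1 Ace library inside the control range. Sdha fell from 652, 710 and 719 CPM to 558, 595 and 651 CPM (log2 change -0.22, SE 0.04, adjusted p = 1.66e-05), and Uqcrc2 had a log2 change of -0.21 (SE 0.05). Sdhaf3, which helps mature Sdhb, rose from 5.35, 6.22 and 6.96 CPM to 7.06, 7.91 and 8.79 CPM (log2 change 0.35, SE 0.09, adjusted p = 0.000622). Sdha and Sdhaf3 did not overlap between the groups. Uqcc2 and Cox19 rose by 0.28 (SE 0.07) and 0.16 (SE 0.04) on the log2 scale. For Uqcc2 the medians were 61 CPM in DMSO2 and 58.7 CPM in Ace at 6 hours and 31.6 and 38.3 CPM at 24 hours, lower in both groups. Atp5mc1, at -0.21 (adjusted p = 0.00439), did not pass without numbers 1, 3, 4 or 6 of the Ace libraries or number 5 of the DMSO2 libraries. Sdhc did not pass without number 1 of the Ace libraries or number 5 of the DMSO2 libraries.

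Cell type markers moved with Ace at 24 hours beside these changes. Of 10 fibroblast markers 0 rose and 9 fell, and their sum ran from 7310 to 9330 CPM in Ace and from 15200 to 19000 CPM in DMSO2. Of 15 cardiomyocyte markers 1 rose and 6 fell, and their sums overlapped, from 47600 to 66700 CPM in Ace and from 49400 to 63100 CPM in DMSO2. Rises and falls were 0 and 5 for macrophages, 0 and 4 for endothelial cells and 0 and 4 for smooth muscle. The part of these shifts in the fall of Cox8b and the other changes was not tested.

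With Dox at 24 hours, 17 genes rose and 28 fell, which is 28.3% and 46.7% of the 60 against 40.4% and 41% of all genes. The share that fell was thus near the background, and the share that rose was below it. The log2 changes ran from -1.93 to 0.68 with a median of -0.15. The groups did not overlap in 12 higher and 25 lower genes, against 33.6% and 34.6% of all genes. Of the 50 genes higher with Dox at 6 hours 17 were higher, 20 lower and 13 not called at 24 hours, and the 4 that were lower at 6 hours were lower again. The same count was not made over all genes, so it is not read as particular to the 60.

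Complex II was lower with Dox at 24 hours in 5 of its 7 genes and higher in 1, with a median log2 change of -0.74. These shares were 71.4% and 14.3%, against 41% and 40.4% of all genes. Sdha had 652, 710 and 719 CPM in DMSO2 and 367, 399 and 478 CPM in Dox (log2 change -0.74, SE 0.04, adjusted p = 3.89e-24). Sdhb had 245, 252 and 271 CPM and 179, 213 and 236 CPM (log2 change -0.26, SE 0.06, adjusted p = 5.25e-05). The membrane anchors Sdhc and Sdhd, which bind heme and ubiquinone, changed by -0.79 (SE 0.04) and -0.78 (SE 0.06). No library of Dox reached the control range in these 4 genes. The assembly factors went apart: Sdhaf4, which helps Sdha and Sdhb join, fell from 14, 15.1 and 19 CPM to 6.17, 8.2 and 9.95 CPM (log2 change -0.97, SE 0.09, adjusted p = 4.32e-16). Sdhaf2 rose from 53, 57.7 and 58.4 CPM to 67.1, 75.8 and 82 CPM (log2 change 0.41, SE 0.05, adjusted p = 1.78e-10). Neither factor overlapped between the groups, and Sdhaf3, with a log2 change of -0.09, did not pass.

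In complex III with Dox at 24 hours, the electron-carrying and core subunits were lower and most small subunits higher. Of its 14 genes 4 rose and 8 fell (28.6% and 57.1%, against 40.4% and 41% of all genes). Cyc1, cytochrome c1, went from 553, 604 and 634 CPM to 388, 413 and 491 CPM (log2 change -0.52, SE 0.05, adjusted p = 1.64e-13). Uqcrfs1, the Rieske iron-sulfur protein, went from 400, 438 and 487 CPM to 327, 354 and 393 CPM (log2 change -0.27, SE 0.06, adjusted p = 1.59e-05). The core proteins Uqcrc1 and Uqcrc2 changed by -0.28 and -0.40, and all 4 of these genes lay below the control range in every Dox library. Of the 5 small subunits 4 rose. Uqcrq went from 258, 284 and 320 CPM to 392, 441 and 485 CPM (log2 change 0.64, SE 0.07, adjusted p = 6.22e-12). Uqcrh, the hinge protein, went from 282, 315 and 363 CPM to 401, 479 and 523 CPM (log2 change 0.60, SE 0.08, adjusted p = 7.18e-10). Both were above the control range in every Dox library, and Uqcr11 and Uqcr10 rose by 0.56 and 0.32. Uqcrb had 0.03 and did not pass. Of the 5 assembly factors 4 fell, with Uqcc2 going from 30.7, 31.6 and 34.7 CPM to 15.5, 16.7 and 18.3 CPM (log2 change -0.95, SE 0.07, adjusted p = 1.38e-18) and Uqcc1 changing by -0.87 (SE 0.06).

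In complex IV with Dox at 24 hours, 6 of 14 subunits rose and 3 fell, while 1 of 8 assembly factors rose and 6 fell. These shares were 42.9% and 21.4% for the subunits and 12.5% and 75% for the assembly factors, against 40.4% and 41% of all genes. The share of subunits that rose was thus near that of all genes. The subunits that rose were Cox4i1, Cox6a2, Cox6b1, Cox6c, Cox7b and Cox7c, and those that fell were Cox5a, Cox6a1 and Cox8b. Cox6c went from 328, 359 and 424 CPM to 467, 531 and 626 CPM (log2 change 0.56, SE 0.07, adjusted p = 2.29e-10). Cox10 had the steepest fall of the 60 genes, from 46.2, 49.7 and 53.6 CPM to 11.7, 12.9 and 15 CPM (log2 change -1.93, SE 0.06, adjusted p = 1.01e-40). Cox19 followed, from 32.3, 35.7 and 36.9 CPM to 10.8, 12.3 and 13.6 CPM (log2 change -1.53, SE 0.05, adjusted p = 1.93e-39). Both were far below the control range, and both had also fallen most with Dox at 6 hours. Cox17, a copper chaperone, and Cox16 changed by -0.76 and -0.44, and Cox14 and Cox15, the heme A synthase, by -0.32 and -0.19. Cox18, which inserts subunit 2 in the membrane, rose by 0.24. The median of the 23 genes was -0.001, and with library size alone it was 0.05, so no direction is given for complex IV as a whole.

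In complex V with Dox at 24 hours, 5 genes rose and 6 fell (31.2% and 37.5%, against 40.4% and 41% of all genes). Atp5f1b, which had risen at 6 hours, had 5370, 5600 and 6110 CPM in DMSO2 and 5370, 5580 and 6340 CPM in Dox, with a log2 change of 0.01 (SE 0.04) that did not pass. The other F1 head subunits went apart, with Atp5f1a (alpha) at -0.39, Atp5f1d (delta) at -0.49 and Atp5f1e (epsilon) at 0.50. The c ring genes Atp5mc1, Atp5mc2 and Atp5mc3 all fell, with log2 changes of -0.28, -0.30 and -0.28. Atp5pb, the b subunit of the stalk, fell most, from 248, 263 and 296 CPM to 128, 140 and 161 CPM (log2 change -0.89, SE 0.06, adjusted p = 5.6e-22). The stalk subunits Atp5pd, Atp5pf and Atp5po had changes between -0.10 and 0.10 that did not pass, and the membrane subunits Atp5me and Atp5mg rose by 0.50 and 0.40. Atp5if1 rose from 182, 191 and 223 CPM to 232, 270 and 280 CPM (log2 change 0.42, SE 0.05, adjusted p = 1.16e-10). Atp5mk-ps2, a pseudogene row whose reads may belong to its parent gene, had the highest change of the 60, from 217, 233 and 285 CPM to 324, 383 and 447 CPM (log2 change 0.68, SE 0.08, adjusted p = 4.42e-11). Neither of the last 2 genes overlapped between the groups.

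**Figure D3:**
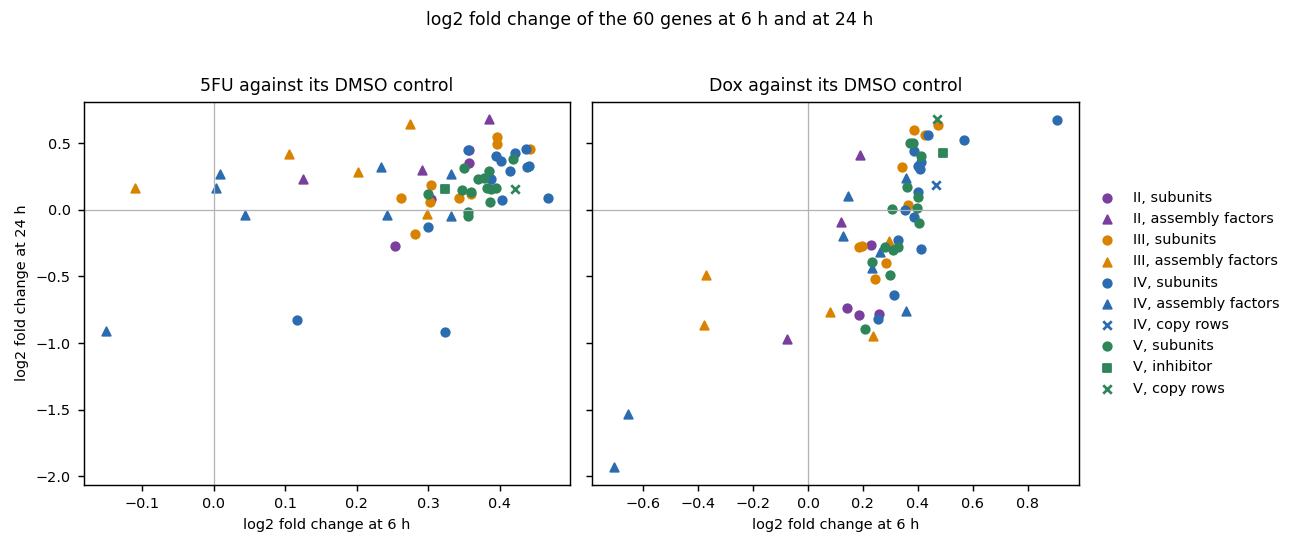
Log2 fold change of each of the 60 genes at 24 hours (vertical axis) against 6 hours (horizontal axis) for 5FU and for Dox, each against its own DMSO control, with colour for the complex and shape for the kind of gene. With Dox the subunits lie between -0.89 and 0.67 at 24 hours, and Cox10 and Cox19 lie at the lower left.

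The 24-hour effect was then tested against the 6-hour effect of the same drug. For Dox, 36 genes had a lower effect at 24 hours and 1, Sdhaf2, a higher one, against 30.8% and 34% of all genes. The median difference was -0.41, where all genes had 0.07, and with library size alone these medians were -0.21 and 0.27. The lowest differences were those of Cox10 at -1.22, Uqcc2 at -1.18, Cox17 at -1.12, Atp5pb at -1.10 and Cox8b at -1.07. The small complex III subunits Uqcrh, Uqcrq, Uqcr10 and Uqcr11, which rose at both times, had differences between -0.02 and 0.21 that did not pass.

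For 5FU, 12 genes had a lower and 4 a higher effect at 24 hours, against 19.2% and 20.3% of all genes, and with library size alone 9 and 6. Sdha, with a difference of -0.53 (SE 0.07, adjusted p = 1.15e-09 by edgeR), and Uqcrc2, with -0.46 (SE 0.08, adjusted p = 1.41e-06 by edgeR), went from a rise to a fall. The fall of Uqcrc2 at 24 hours did not pass without some single libraries, as given above. For Ace 1 gene, Cox8b, had a lower effect at 24 hours and 0 a higher one by edgeR, against 6.06% and 5.58% of all genes. At an unadjusted p under 0.05, 4 of the Ace differences were higher and 6 lower, Cox8b included, and DESeq2 called 0 higher and 1 lower.

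Isoforms were compared as the log2 ratio of the counts of paired genes within a library, which does not depend on library scaling. The tests were two-sided exact permutation tests, adjusted over all 36 that were run. The level of the ratio also holds the difference in transcript length, so only its change is read.

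For subunit 6A, the log2 ratio of Cox6a2 to Cox6a1 averaged 1.18 ± 0.20 (SD, n = 7) in Dox at 24 hours and 0.01 ± 0.07 (SD, n = 7) in DMSO2, a difference of 1.17 (exact permutation, adjusted p = 0.0042). The Dox libraries began at 0.94 and the DMSO2 libraries ended at 0.11. Cox6a2 rose from 607, 642 and 751 CPM to 847, 951 and 1090 CPM (log2 change 0.52, SE 0.07, adjusted p = 1.39e-10). Cox6a1, the ubiquitous form, fell from 617, 648 and 718 CPM to 372, 428 and 520 CPM (log2 change -0.64, SE 0.07, adjusted p = 8.99e-14). Neither form overlapped between the groups. At 6 hours the ratio was 0.25 higher with Dox (exact permutation, adjusted p = 0.0042), where both forms rose. With 5FU and Ace the differences were between -0.03 and 0.09 and did not pass.

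For subunit 8, the log2 ratio of Cox8b to Cox8a was lower with each drug at 24 hours. It averaged -2.38 ± 0.21 (SD, n = 7) in Dox against -1.61 ± 0.13 (SD, n = 7) in DMSO2, a difference of -0.77 (exact permutation, adjusted p = 0.0042). In Ace it averaged -2.28 ± 0.24 (SD, n = 7), a difference of -0.67 from the same controls (exact permutation, adjusted p = 0.007). In 5FU it averaged -2.50 ± 0.08 (SD, n = 6) against -2.02 ± 0.17 (SD, n = 6) in DMSO1, a difference of -0.47 (exact permutation, adjusted p = 0.0078). The ratios did not overlap with Dox and with 5FU, and 1 Ace library lay within the DMSO2 range. As given above, 6 of 15 cardiomyocyte and 9 of 10 fibroblast markers were lower in Ace at 24 hours, and their part in this ratio was not tested. With Dox, Cox8b went from 164, 206 and 251 CPM to 97.4, 109 and 164 CPM, with 1 library at the edge of the control range (log2 change -0.82, SE 0.12, adjusted p = 6.13e-09), while Cox8a, the ubiquitous form, had medians of 629 and 608 CPM. With 5FU, Cox8a rose (log2 change 0.36, SE 0.06, adjusted p = 1.85e-07) and Cox8b had a log2 change of -0.13 that did not pass. At 6 hours no drug changed this ratio past the threshold. In the controls the ratio averaged -2.20 at 6 and -1.61 at 24 hours in DMSO2, and -2.41 and -2.02 in DMSO1. It was thus higher at 24 hours in both controls, and lower in DMSO1 than in DMSO2. The average of each drug at 24 hours lay near that of its control at 6 hours. These differences between control groups were not tested.

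**Figure D4:**
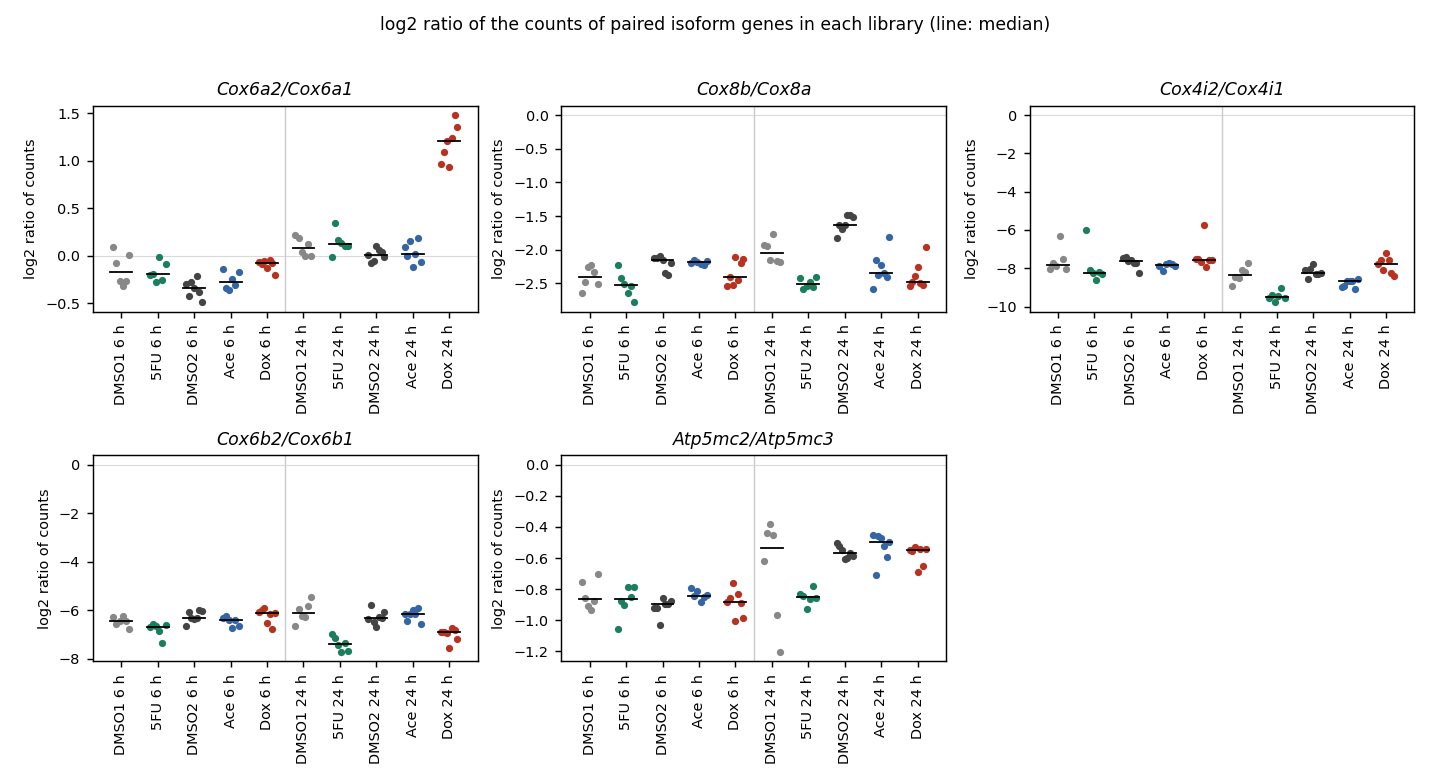
Log2 ratio of counts (vertical axis) for 5 pairs of isoform genes in every library of the 10 groups (horizontal axis), with the median of each group as a line. The ratio of Cox6a2 to Cox6a1 lies between 0.94 and 1.48 in Dox at 24 hours, above every library of the other groups, and the ratio of Cox8b to Cox8a is lower in the drug groups at 24 hours than in their controls.

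Cox4i2 and Cox6b2 are low in these cells, with group medians between 1.51 and 6.46 CPM for Cox4i2 and between 1.86 and 4.34 CPM for Cox6b2, so their ratios are less precise. The ratio of Cox4i2 to Cox4i1 changed by -1.14 on the log2 scale with 5FU at 24 hours (exact permutation, adjusted p = 0.0078) and by -0.62 with Ace at 24 hours (exact permutation, adjusted p = 0.0042). With Dox this ratio did not change past the threshold at either time. Cox4i2 itself was not called lower with 5FU or Ace at 24 hours. It had 2.25, 2.78 and 4.18 CPM in DMSO1 and 1.24, 1.51 and 2.05 CPM in 5FU, without overlap. In DMSO2 it had 2.37, 3.25 and 4.28 CPM, and in Ace 1.6, 2.17 and 2.52 CPM, with overlap. The ratio of Cox6b2 to Cox6b1 changed by -1.31 with 5FU (exact permutation, adjusted p = 0.0078) and by -0.71 with Dox at 24 hours (exact permutation, adjusted p = 0.0042). The ubiquitous forms rose with both drugs at both times: Cox4i1 by 0.39 and 0.23 with 5FU and 0.41 and 0.30 with Dox at 6 and 24 hours, and Cox6b1 by 0.44, 0.46, 0.38 and 0.44 in the same order.

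The 3 genes for subunit c of complex V encode the same mature protein. The ratio of Atp5mc2 to Atp5mc3 changed by 0.08 with Ace at 6 hours (exact permutation, adjusted p = 0.017). This difference did not pass when medians were compared (0.055, exact permutation, adjusted p = 0.13). In DMSO1 at 24 hours the ratio of Atp5mc2 to Atp5mc3 was -0.965 and -1.205 in 2 of the 6 libraries and between -0.622 and -0.382 in the others.

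**Figure D5:**
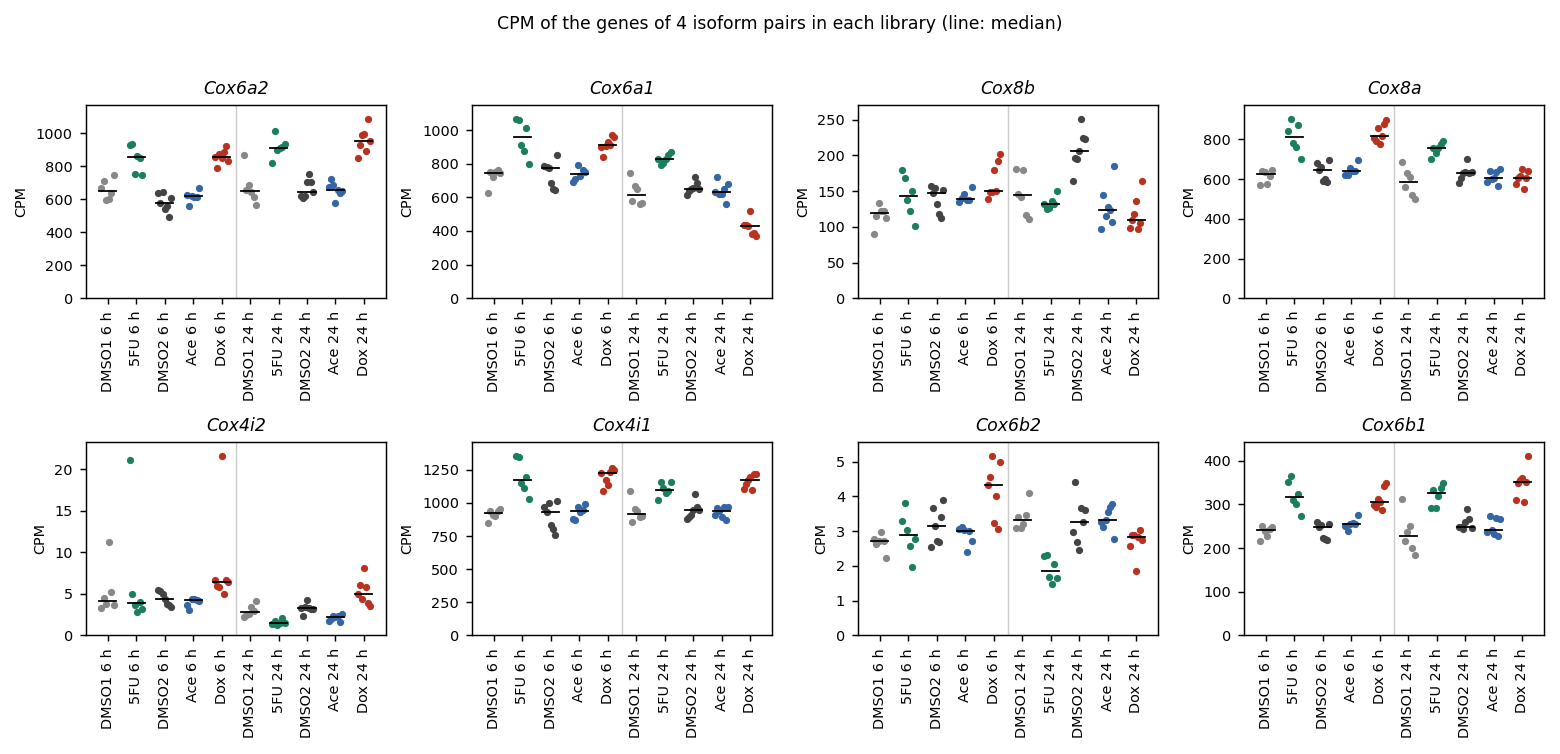
CPM (vertical axis from 0) of the genes of 4 isoform pairs of complex IV in every library of the 10 groups (horizontal axis), with the median of each group as a line. Cox6a2 is higher and Cox6a1 lower in Dox at 24 hours than in DMSO2, and single libraries at 6 hours stand high for Cox4i2, at 21.6 CPM in Dox and 21.2 CPM in 5FU.

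Between the controls, 0 of the 60 genes differed between DMSO1 and DMSO2 at 6 hours by edgeR, where 9.87% of all genes were higher and 6.6% lower in DMSO1, and 0 differed at 24 hours, where 0.137% were higher and 0.295% lower. At an unadjusted p under 0.05, 1 gene was higher and 2 lower at 6 hours, and 3 genes were higher and 8 lower at the later time, and DESeq2 called 0 genes at 6 hours and 1 lower at 24 hours. In 0 of the 60 genes were the DMSO1 libraries all above or all below the DMSO2 libraries at either time, while 2.4% and 2.67% of all genes at 6 hours and 0.515% and 1.18% at 24 hours were higher or lower in every DMSO1 library. Markers did differ between the controls at 6 hours: 7 of 15 cardiomyocyte markers were higher and 1 lower in DMSO1, 0 and 7 of 10 fibroblast markers, 0 and 5 of 7 endothelial markers, 3 and 3 of 7 smooth muscle markers and 0 and 0 of 8 macrophage markers. From 6 to 24 hours in the controls, 5 genes rose and 24 fell, against 32.7% and 31.9% of all genes. The genes that rose were Sdha, Cox8b, Cox15, Atp5f1a and Atp5f1b, with log2 changes of 0.15, 0.46, 0.25, 0.12 and 0.23. Uqcc2 fell most (log2 change -0.89, SE 0.05, adjusted p = 5.63e-24), from medians of 59.7 and 61 CPM in DMSO1 and DMSO2 to 32.1 and 31.6 CPM, and Atp5f1d and Cox10 changed by -0.57 and -0.52.

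The 60 genes together took 2.17% to 2.82% of the counts in the 4 control groups. At 6 hours their share was 2.69% to 3.25% in 5FU against 2.17% to 2.56% in DMSO1, and 2.75% to 3.13% in Dox against 2.37% to 2.82% in DMSO2. In Ace at 6 hours it was 2.48% to 2.62%, within the DMSO2 range. At 24 hours it was 2.69% to 2.84% in 5FU against 2.30% to 2.67% in DMSO1, without overlap. In Dox at 24 hours it was 2.34% to 2.60% and in Ace 2.32% to 2.60%, against 2.35% to 2.68% in DMSO2. Complex II alone took 0.177% to 0.202% in Dox at 6 hours and 0.170% to 0.189% in DMSO2. At 24 hours it took 0.103% to 0.124% in Dox and 0.160% to 0.174% in DMSO2. The share of the 60 genes overlapped between Dox and DMSO2 at both times, and that of complex II overlapped at 6 hours and not at 24 hours.

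Genes outside these families that act on the same complexes were taken as lists. Of 20 other assembly and accessory genes of complex IV, 7 rose and 2 fell with 5FU at 6 hours, which is 35% and 10% against 23.4% and 24.5% of all genes. With Dox at 6 hours 10 and 3 did (50% and 15%, against 31.5% and 32.7%), and with 5FU at 24 hours 9 and 1 (45% and 5%, against 28% and 27.8%). With Dox at 24 hours 9 rose and 8 fell, and these 45% and 40% were near the 40.4% and 41% of all genes. With Ace, 0 rose and 3 fell at 6 hours (0% and 15%, against 16.5% and 15.2%) and 4 rose and 1 fell at 24 hours (20% and 5%, against 18.2% and 19.1%). With Dox at 24 hours Coa5 (-1.30), Coa3 (-1.24), Fastkd1 (1.23) and Higd1a (1.64) had log2 changes past 1 in size. Coa7 fell with Dox at 6 hours from 18.2, 18.7 and 21.2 CPM to 4.4, 5.03 and 8.23 CPM (log2 change -1.82, SE 0.09, adjusted p = 4.48e-27), with no overlap. Of 6 partners of complex III, 2 rose and 4 fell with Dox at 24 hours (33.3% and 66.7%, against 40.4% and 41% of all genes), with Lyrm7, which acts on the Rieske protein, at -1.50 and Pmpca, a subunit of the processing peptidase, at 1.02. Of 6 partners of complex V, 0 rose and 4 fell there (0% and 66.7%), with Tmem70 at -1.28. Atpaf1, which assembles the F1 head, changed by -1.03 (SE 0.06) with Dox at 6 hours and by -1.93 (SE 0.06) at 24 hours, from 43.7, 45.4 and 50 CPM to 9.86, 12.1 and 15.2 CPM. In the other comparisons the complex III partners had 2 rises and 1 fall with 5FU and 3 and 1 with Dox at 6 hours, 1 and 4 with 5FU at 24 hours, and 1 and 2 and then 2 and 0 with Ace at 6 and 24 hours. The complex V partners had 4 and 1, 3 and 1, 1 and 3, 0 and 0 and 0 and 1 in that order. In lists of 6 genes a single gene is 16.7%, so these counts are not read against the shares of all genes given above.

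Of 14 nuclear regulators of these genes, 2 rose and 10 fell with Dox at 6 hours, which is 14.3% and 71.4% against 31.5% and 32.7% of all genes. In the other comparisons the shares were nearer to those of all genes: 4 rose and 4 fell with 5FU at 6 hours (28.6% each, against 23.4% and 24.5%), and 3 and 6 with 5FU at 24 hours (21.4% and 42.9%, against 28% and 27.8%). With Ace 2 rose and 3 fell at both times (14.3% and 21.4%, against 16.5% and 15.2% at 6 hours and 18.2% and 19.1% at 24 hours), and with Dox at 24 hours 6 and 5 did (42.9% and 35.7%, against 40.4% and 41%). Ppargc1a, the coactivator known for driving mitochondrial genes, fell in all 6 comparisons. It had 40.6, 41.6 and 50.1 CPM in DMSO2 and 11.5, 13.5 and 15.5 CPM in Dox at 6 hours (log2 change -1.72, SE 0.07, adjusted p = 1.22e-30). At 24 hours it had 43.1, 53.5 and 57.5 CPM and 10.3, 10.7 and 12.9 CPM (log2 change -2.18, SE 0.07, adjusted p = 1.06e-36). The groups did not overlap at either time. With 5FU it changed by -1.08 (SE 0.08) at 6 hours and -0.34 (SE 0.07) at 24 hours, and with Ace by -0.51 and -0.33. The 49 and 50 genes that were higher in 5FU and Dox at 6 hours were so in the libraries in which Ppargc1a was lower. Nrf1, the gene of nuclear respiratory factor 1, changed by -1.88 (SE 0.06) with Dox at 6 hours, from 26.8, 27.6 and 28.1 CPM to 6.3, 7.7 and 8.34 CPM, and by -0.45 at 24 hours. Ppargc1b changed by -1.67 and -1.94 with Dox at 6 and 24 hours, Esrrg by -1.39 and Sp1 by 1.03 with Dox at 24 hours, and Perm1 by -1.15 with 5FU and -1.30 with Dox at 6 hours. Whether these genes and the 60 are linked was not tested.

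The 48 genes of complex I with symbols in Nduf were set beside the 60. With 5FU at 6 hours 39 rose and 1 fell (81.2% and 2.08%, against 23.4% and 24.5% of all genes), and with Dox at 6 hours 35 and 1 did (72.9% and 2.08%, against 31.5% and 32.7%). With 5FU at 24 hours 24 rose and 1 fell (50% and 2.08%, against 28% and 27.8%). With Dox at 24 hours 11 rose and 19 fell (22.9% and 39.6%, against 40.4% and 41%), so the share lower was near that of all genes. With Ace, 0 rose and 1 fell at 6 hours (0% and 2.08%, against 16.5% and 15.2%) and 2 and 5 did at 24 hours (4.17% and 10.4%, against 18.2% and 19.1%), below the shares of all genes in both directions. The 71 genes of mitochondrial ribosomal proteins (Mrpl and Mrps) had 36 rises and 3 falls with 5FU (50.7% and 4.23%) and 31 and 13 with Dox at 6 hours (43.7% and 18.3%). At 24 hours they had 50 and 0 with 5FU (70.4% and 0%) and 16 and 40 with Dox (22.5% and 56.3%). With Ace they had 3 and 11 at 6 hours (4.23% and 15.5%) and 14 and 2 at 24 hours (19.7% and 2.82%). The difference between these families and the 60 genes was not tested.

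Markers of all cell types in the culture moved with Dox at 24 hours beside the results above. Of 15 cardiomyocyte markers 0 rose and 13 fell, of 10 fibroblast markers 0 rose and 10 fell, of 7 endothelial markers 0 rose and 7 fell, of 8 macrophage markers 1 rose and 7 fell, and of 7 smooth muscle markers 3 rose and 3 fell. The summed fibroblast markers ran from 1950 to 4100 CPM in Dox and from 15200 to 19000 CPM in DMSO2, the endothelial ones from 25.6 to 55.9 and 258 to 333 CPM, the macrophage ones from 31.7 to 42 and 72.2 to 90.7 CPM, and the smooth muscle ones from 409 to 1720 and 908 to 1020 CPM. The smooth muscle overlap came from library 7 of Dox alone, since the other 6 libraries ran from 1330 to 1720 CPM, all above DMSO2. With 5FU at 24 hours the rises and falls were 1 and 9 for cardiomyocytes, 0 and 10 for fibroblasts, 0 and 5 for endothelial cells, 1 and 2 for macrophages and 2 and 5 for smooth muscle. With Dox at 6 hours they were 8 and 3, 0 and 6, 0 and 7, 3 and 2 and 4 and 1 in that order. With 5FU at 6 hours they were 4 and 2, 0 and 3, 0 and 2, 1 and 2 and 1 and 1, and with Ace at 6 hours 0 and 1, 0 and 7, 0 and 2, 0 and 2 and 0 and 0. The shares of all genes called in each comparison are those given above. The part of these shifts in the changes of the 60 genes was not tested.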

How the data were processed

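RNA was measured by polyA sequencing in 65 libraries of 10 groups. According to the study's methods, the authors assigned reads to rat Ensembl transcripts with kallisto 0.46.0 (also in the submitters' processing notes), used tximport to sum transcripts by Entrez gene, and left out genes whose counts were low throughout. The deposited values are estimated counts, whole numbers without normalization, and were used as deposited.

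Libraries were grouped by treatment and hours as labelled, and numbers of libraries are names only. Symbols and promoter windows came from RefSeq (GRCr8), matched by gene identifier, and 14009 rows had a symbol. A filter of 10 counts in 1 library or more took out no gene. Counts were scaled with TMM and fitted with edgeR 4.0.16 (glmQLFit, glmQLFTest; R 4.3.3) in 1 model of the 10 groups with 12 contrasts, with Benjamini-Hochberg adjustment over 14554 genes. The fit was tested on simulated data. Isoform ratios, 1 of which is not reported here, had 0.5 added to each count and a threshold of 0.05 on the adjusted p, and the smallest permutation p was 0.0022 with 6 against 6 libraries and 0.00058 with 6 or 7 against 7. In 180 within-group pairs of libraries the lowest chi-square per gene was 2.91, so none looked like a library deposited again.

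The members and lists were chosen with earlier results of these data known. Full values were given for isoform pairs, for Sdha, Sdhb, Uqcrfs1, Cyc1, Cox4i1, Atp5f1b and Atp5if1, for the 3 largest rises and falls among called members in each drug comparison, for other listed genes called with a log2 change of at least 1, and for Ppargc1a. Members outside this rule, such as Atp5pb and Cox6c with Dox, were named after their values were seen. The alternatives were the DESeq2 1.42.0 Wald test, its size factors, library size alone, filterByExpr or no filter, the compared groups only, an FDR below 0.1, a log2 change of at least 1, 5 added to each count, medians, and leaving out each library.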

Additional observations from a re-analysis of the deposited data

Results flagged for a closer look

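Within groups, 22 of 320 sets of values for the 32 named members held a library that stood apart by Dixon's criterion, which chance alone gives in about 1 of 20 sets. In DMSO1 at 6 hours, library 1 was lowest for Sdhb at 268 CPM (next value 303 CPM), Uqcr11 at 282 CPM (next value 322 CPM), Cox6a1 at 627 CPM (next value 720 CPM), Atp5mc1 at 434 CPM (next value 533 CPM) and Atp5mk-ps2 at 216 CPM (next value 263 CPM). In DMSO1 at 6 hours, library 5 was lowest for Sdhaf2 at 50.2 CPM (next value 56 CPM). In Dox at 24 hours, library 4 was highest for Cyc1 at 491 CPM (next value 420 CPM) and Cox6a1 at 520 CPM (next value 435 CPM). In 5FU at 6 hours, library 1 was highest for Uqcc1 at 113 CPM (next value 91.2 CPM) and Cox4i2 at 21.2 CPM (next value 4.99 CPM). In Dox at 24 hours, library 7 was highest for Uqcc1 at 50 CPM (next value 42.3 CPM) and Atp5f1b at 6340 CPM (next value 5760 CPM). In DMSO1 at 6 hours, library 4 was highest for Cox4i2 at 11.2 CPM (next value 5.2 CPM) and Cox10 at 76.9 CPM (next value 68.2 CPM). In Dox at 6 hours, library 4 was highest for Cox4i2 at 21.6 CPM (next value 6.68 CPM) and Cox10 at 54.1 CPM (next value 43.7 CPM). In Dox at 24 hours, library 4 was lowest for Cox6b2 at 1.87 CPM (next value 2.57 CPM). In Ace at 24 hours, library 4 was highest for Cox10 at 48.3 CPM (next value 44.4 CPM). In DMSO2 at 6 hours, library 3 was lowest for Cox10 at 64.8 CPM (next value 69.4 CPM). In Dox at 6 hours, library 7 was highest for Cox19 at 25.1 CPM (next value 22 CPM). In DMSO2 at 24 hours, library 5 was highest for Atp5mc2 at 514 CPM (next value 469 CPM) and Atp5mk-ps2 at 285 CPM (next value 246 CPM). The cause was not tested.

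With 5FU the named members whose effect differed between 24 and 6 hours by the edgeR interaction test (24-hour minus 6-hour log2 effect, adjusted p in parentheses) were Sdha at -0.53 (1.15e-09), Sdhaf2 at 0.29 (0.00175), Uqcrc2 at -0.46 (1.41e-06), Uqcc1 at -0.33 (0.0023), Uqcc2 at 0.37 (0.00235), Cox6b2 at -0.95 (6.18e-05), Cox7a2l at -0.38 (0.000272), Cox10 at 0.26 (0.00355), Cox16 at -0.76 (8.46e-06), Atp5f1b at -0.33 (3.44e-05), Atp5mc1 at -0.4 (0.000353) and Atp5mc2 at -0.37 (3.15e-05). With Ace it was Cox8b at -0.72 (0.00113). With Dox they were Sdha at -0.88 (5.21e-20), Sdhb at -0.49 (3.71e-07), Sdhaf2 at 0.23 (0.00622), Sdhaf4 at -0.9 (7.75e-10), Uqcrfs1 at -0.47 (4.78e-07), Cyc1 at -0.76 (9.26e-14), Uqcrc2 at -0.68 (8.12e-13), Uqcc1 at -0.49 (1.52e-06), Uqcc2 at -1.18 (1.25e-16), Cox6a1 at -0.95 (3.13e-14), Cox6b2 at -0.7 (0.000354), Cox7a2l at -0.35 (0.000119), Cox8a at -0.44 (6.39e-07), Cox8b at -1.07 (6.81e-08), Cox10 at -1.22 (6.4e-23), Cox16 at -0.67 (6.13e-06), Cox19 at -0.88 (2.48e-19), Atp5f1b at -0.29 (2.45e-05), Atp5mc1 at -0.6 (1.63e-08), Atp5mc2 at -0.61 (8.19e-12) and Atp5mc3 at -0.56 (3.92e-08).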

How the results depend on the processing

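Counts of called members stayed within 1.5 times under 96 of 120 alternatives. A log2 change of at least 1 left 0 members for 5FU, Ace and Dox at 6 hours, for 5FU and Ace at 24 hours, for the controls over time and for the time differences of 5FU and Ace, 2 for Dox at 24 hours and 6 for its time difference. An FDR below 0.1 called 2 with Ace at 6 hours, 22 with Ace at 24 hours, 2 and 1 between the controls at 6 and 24 hours, and 32 and 7 in the time differences of 5FU and Ace. A fit of the compared groups called 2 with Ace at 6 hours, 16 at 24 hours and 2 in its time difference. Library size alone called 33 with Dox at 6 hours, 2 between the controls at 6 hours and 4 in the time difference of Ace. DESeq2 called 1 between the controls at 24 hours, and leaving out 1 library gave 0 to 1 there (1 without library 4 of DMSO1 or library 1 of DMSO2).

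Library size alone also moved the median log2 change of the 60 genes to -0.016 (Ace) and 0.166 (Dox) at 6 hours and 0.009 (Ace) at 24 hours. For complexes II, III, IV and V with Dox at 6 hours it gave 0.031, 0.11, 0.204 and 0.213. Complex IV turned to -0.011 and 0.013 with Ace at 6 and 24 hours and 0.047 with Dox at 24 hours, complex V to -0.016 with Ace at 6 hours, and Sdha to -0.013 with Dox at 6 hours. That scaling sets no factor for composition; the cause of the shift was not tested.

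Among isoform ratios, comparing medians gave -0.03 for Cox8b/Cox8a and 0.055 for Atp5mc2/Atp5mc3 with Ace at 6 hours, and 0.002 and 0.016 for Atp5mc2/Atp5mc3 with 5FU at 6 hours and Dox at 24 hours. Leaving out 1 library, uncalled ratios changed sign as follows: Cox6a2/Cox6a1 with 5FU at 6 hours (-0.07 to 0.012), Cox8b/Cox8a (-0.013 to 0.034) with Ace at 6 hours, Cox6b2/Cox6b1 with Dox at 6 hours (-0.05 to 0.111), and Atp5mc2/Atp5mc3 with 5FU at 6 hours (-0.056 to 0) and Dox at 24 hours (-0.025 to 0.001).

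No paired analysis was possible because the columns carry no replicate numbers.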
